A study of Homo sapiens with 18 samples.

Results

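The neurotrophins BDNF and NTF3 and the receptors and sorting protein that handle them, NTRK2, NTRK3, NGFR and SORT1, were followed in 2 brain tumor lines exposed to a direct current electrical field. These 6 genes were taken by name from the 32490 gene names in the deposited table, and their 56 transcripts were summed by name. They were selected because their levels in these same samples were already known. Their levels and changes are therefore given below as a description, and no p-value is printed for them.

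Spheroidal aggregates of U87 mg, an established human glioblastoma line, and of DAOY, an established human medulloblastoma line, were embedded in a Matrigel mixture and allowed to gel in electrotaxis channels. RNA was then collected after 0, 2 or 8 h at 250 V/m, with 3 samples for each of the 6 combinations of line and time and 3 channels pooled into each sample. The labels name the 0 h samples as control, and every group shared the medium with 10% fetal bovine serum and the gel. Aggregates kept in channels for as long but with no field applied were not analysed here, and an effect of the field cannot be told apart from one of time. Each line is a single culture line without stroma or blood vessels. In bulk samples, fewer cells of a kind and less RNA per cell cannot be told apart either.

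Neurotrophins are secreted growth factors, made as longer precursors, that maintain neurons and shape their connections. BDNF binds the receptor tyrosine kinase TrkB, encoded by NTRK2, and NT-3, encoded by NTF3, binds TrkC, encoded by NTRK3. The p75 receptor, encoded by NGFR, binds all of them, and its partner sortilin, encoded by SORT1, binds the precursors and sorts BDNF inside the cell.

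The depth was 8341976 to 15610886 estimated counts per sample. Among fixed marker genes, the glial and mesenchymal genes VIM and CD44 were high in both lines, with median TPM (the abundance scaled by transcript length and library size) of 4561 and 2903 in U87 mg and of 2133 and 1150 in DAOY. The astrocyte marker GFAP had a median of 0.958 TPM in U87 mg, where S100B, AQP4 and SOX2 had a median of 0. SLC1A3 and NES of the same list had medians of 43.7 and 7.62 TPM there. In DAOY, the granule neuron genes NEUROD1, GLI1 and BARHL1 had a median of 0. ZIC1, ZIC2, PAX6 and GLI2 of that list had medians of 12.2, 10.8, 23.3 and 1.05 TPM in DAOY. ATOH1 and SOX10 are not in the table. Of the 10 astroglial and glioma markers, 4 had a median of at least 1 TPM in either line, and their summed TPM was 6772 to 8390 in U87 mg and 2631 to 4047 in DAOY. Of the granule neuron precursor markers, 5 of 8 reached that median in U87 mg and 4 of 8 in DAOY, so this list did not set the lines apart. Neuron markers reached it for 5 of 8 genes in either line, with sums of 46.5 to 97.7 TPM in U87 mg and 30.6 to 50.9 TPM in DAOY. The part of such marker differences in the differences between the lines was not tested.

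The 2 ligands share the coding end of the mature growth factor, shown here because it is the stretch that most BDNF transcripts have in common. Capitals mark bases that are the same in both genes, 65 of 96 (67.7%). The BDNF stretch lies at chr11:27657824-27657919 on the minus strand of GRCh38 and is in 15 of 16 coding transcripts of the gene. The NTF3 stretch lies at chr12:5494887-5494982 on the plus strand, 3 bases before the end of its coding sequence.
BDNF: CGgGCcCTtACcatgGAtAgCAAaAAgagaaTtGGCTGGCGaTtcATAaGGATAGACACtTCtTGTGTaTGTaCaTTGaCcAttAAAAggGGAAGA
NTF3: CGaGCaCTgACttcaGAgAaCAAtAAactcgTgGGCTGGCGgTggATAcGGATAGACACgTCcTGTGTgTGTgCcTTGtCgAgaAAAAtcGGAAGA
At the length of 31 bases that Kallisto matches by default, BDNF shared 0 subsequences with NTF3 or NTF4, and thus no read segment of that length was common to BDNF and either of them.

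BDNF (ENSG00000176697, chromosome 11, 27654893 to 27722058, minus strand of GRCh38) was the ligand with the higher level in U87 mg. At 0 h it was at 15.9, 16.8 and 18.5 TPM in the 3 U87 mg samples, at 2 h at 15.2, 15.5 and 15.9 TPM, and at 8 h at 10.9, 11.6 and 9.82 TPM. All 8 h samples of U87 mg lay below all 0 h and 2 h samples, whose ranges overlapped each other. DAOY had it at 1.96, 2.34 and 1.65 TPM at 0 h, at 1.74, 1.67 and 2.29 TPM at 2 h, and at 4.76, 5.19 and 5.68 TPM at 8 h. All 8 h samples of DAOY lay above the earlier ones. The order of the 6 conditions ran from U87 mg at 0 h (17.1 ± 1.32 TPM, SD, n = 3) through U87 mg at 2 h and 8 h (10.8 ± 0.912 TPM) and DAOY at 8 h (5.21 ± 0.460 TPM) to DAOY at 0 h (1.98 ± 0.346 TPM) and 2 h (1.90 ± 0.340 TPM). The ranges of neighbours overlapped between U87 mg at 0 h and 2 h and between DAOY at 0 h and 2 h, and not between the other neighbours. The 8 h levels of the lines were thus closer to each other than the 0 h levels.

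**Figure D1:**
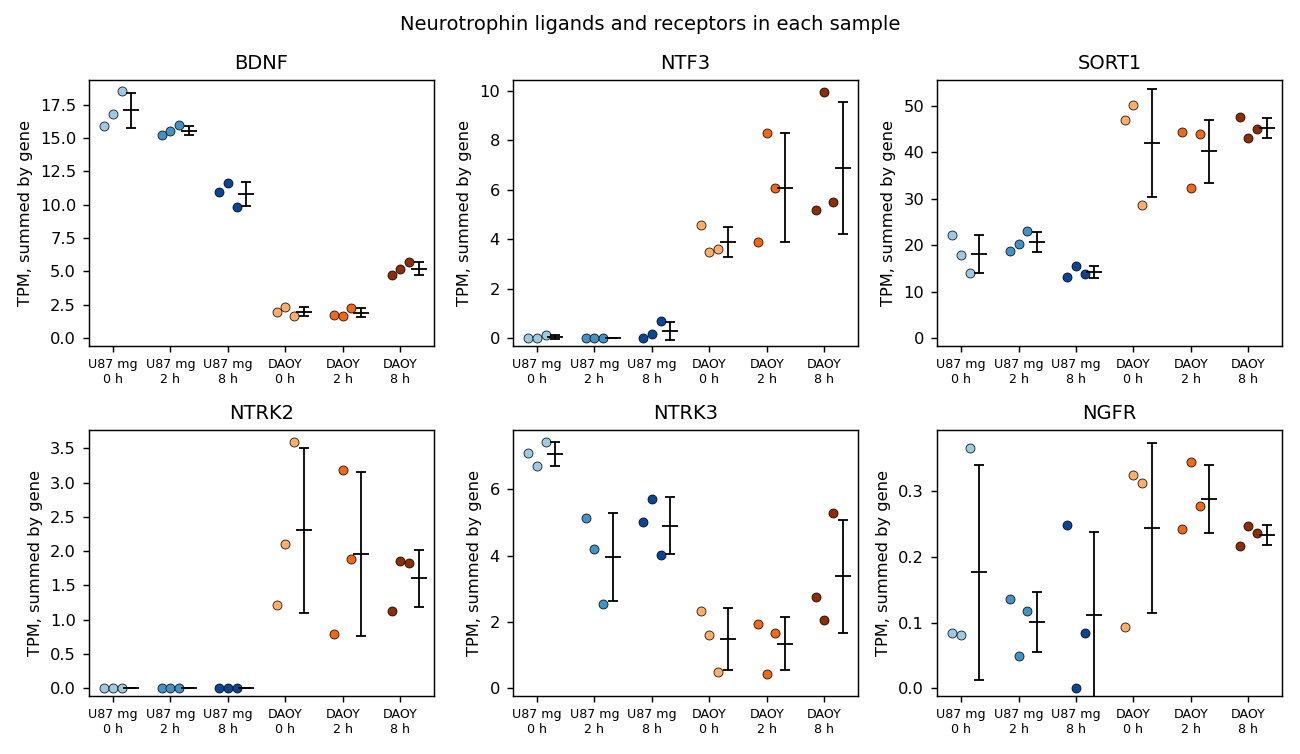
TPM summed by gene (vertical axis, linear, each panel on its own scale) in each of the 18 samples, with the 6 combinations of line and time on the horizontal axis. Points are samples, and the mark and bar beside them are the mean and the SD of 3 samples. BDNF fell between 9.82 and 18.5 TPM in U87 mg and between 1.65 and 5.68 TPM in DAOY, and NTRK2 was at 0 in all 9 U87 mg samples.

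On the scale of estimated counts, fitted by edgeR, BDNF in U87 mg had a log2 fold change of -0.15 (standard error 0.12) at 2 h and -0.55 (standard error 0.12) at 8 h, relative to 0 h. In DAOY it was -0.13 (standard error 0.26) at 2 h and 1.46 (standard error 0.25) at 8 h, a 2.76-fold higher level. The 8 h changes differed by 2.02 (standard error 0.24) on the log2 scale between the lines. At 0 h, the level in U87 mg was 8.70-fold that in DAOY. Leaving out any 1 sample, the 8 h change stayed between -0.59 and -0.52 in U87 mg and between 1.32 and 1.56 in DAOY.

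The rule by which changes were called over all genes is given for the members as a description. A change was called at an adjusted p under 0.05 together with a log2 fold change of 1 or more in size, and the difference between the lines at the adjusted p alone. In U87 mg at 2 h, 0 of the 3 members tested were called, where 0% of all 14106 genes tested were. In U87 mg at 8 h, 0 of the 3 were called, against 0.638% of all genes. In DAOY at 2 h, 0 of the 5 members tested were called, against 0% of 15396 genes. In DAOY at 8 h, 1 of 5 was called, BDNF, against 3.13% of all genes. Between the lines at 0 h, 4 of 5 were called, BDNF, NTF3, NTRK2 and SORT1, against 41.2% of 16482 genes. The difference of the 8 h changes was called for 1 of 5, BDNF (NTRK2 was in that fit but, at 0 in U87 mg, gave no usable value), against 0.0121% of all genes, or 2 genes, the other being the keratin KRT80, named after its value was seen. At 2 h, where 0% were called, 1239 genes in U87 mg and 424 in DAOY had an unadjusted p under 0.05, and DESeq2 called 3 and 1 genes. The adjusted p values come from edgeR's quasi-likelihood test after Benjamini-Hochberg adjustment. Because the members were chosen on these contrasts, nothing is read from their share or from the call of any of them, BDNF included.

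**Figure D2:**
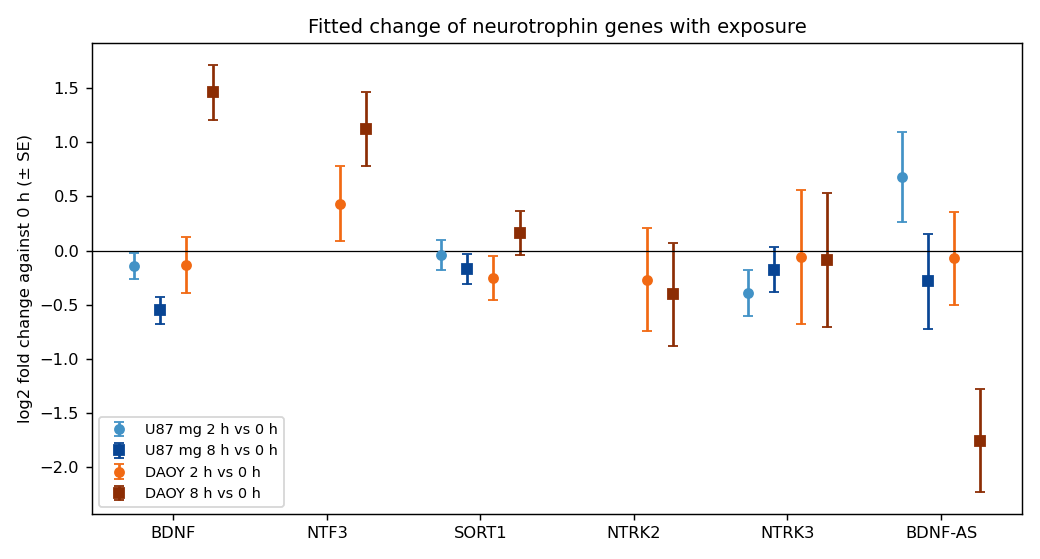
Log2 fold change against 0 h with its standard error (vertical axis) from the edgeR fit of each line's 9 samples, for 5 members and the antisense gene BDNF-AS (horizontal axis). Circles are 2 h and squares 8 h, in blue for U87 mg and in orange and brown for DAOY, and a gene without a symbol for a line was not tested there. BDNF at 8 h lies at -0.55 in U87 mg and 1.46 in DAOY, and BDNF-AS at -1.76 in DAOY.

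The deposited table lists 17 BDNF transcripts, which differ mainly in their first exon and share most of the rest. Between 77.4% and 97.8% of the 31-base subsequences of a transcript were in all 17. The transcript ENST00000395983 had 25 subsequences of its own among 3746, and ENST00000395980 and ENST00000584049 are the same sequence and have none, so these are described as a pair. Of the 17, 7 reached a mean of 10 estimated counts in at least 1 condition and 10 did not, with a highest mean of 8.87 among the latter. In U87 mg at 0 h, ENST00000395983 held 57.2%, 60.7% and 77.2% of the BDNF counts. At 2 h its share was 71.7%, 57.8% and 31.3%, and at 8 h 47.3%, 25.5% and 36.8%. The 8 h shares lay below all 0 h samples, and the 2 h shares overlapped both. In DAOY this transcript was at 0 counts in all 3 samples at 0 h. The identical pair held 100% of the BDNF counts in replicate 1, 74.5% in replicate 2 and 0% in replicate 0 of DAOY at 0 h, and 47.9%, 61.1% and 80.1% at 8 h.

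The transcript that took most counts changed between replicates of a condition. In replicate 2 of U87 mg at 2 h, ENST00000525950 took 150.4 of the counts, or 49.1%, and 0 in the other 2 samples at that time. In replicate 0 of DAOY at 0 h, ENST00000533131 took all 47.74 counts, and to 2 decimals it had 0 in the other 17 samples. ENST00000314915 reached its highest value, 29.79 counts, in replicate 1 of U87 mg at 2 h. ENST00000356660 was in all 9 U87 mg samples, with 27.64 to 80.19 counts, and in 1 of 9 DAOY samples, with 10.74 counts. The gene sums of 37.3 to 68.4 counts in DAOY at 0 h and 124.7 to 143.2 at 8 h did not overlap, whichever transcript the counts were given to.

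**Figure D3:**
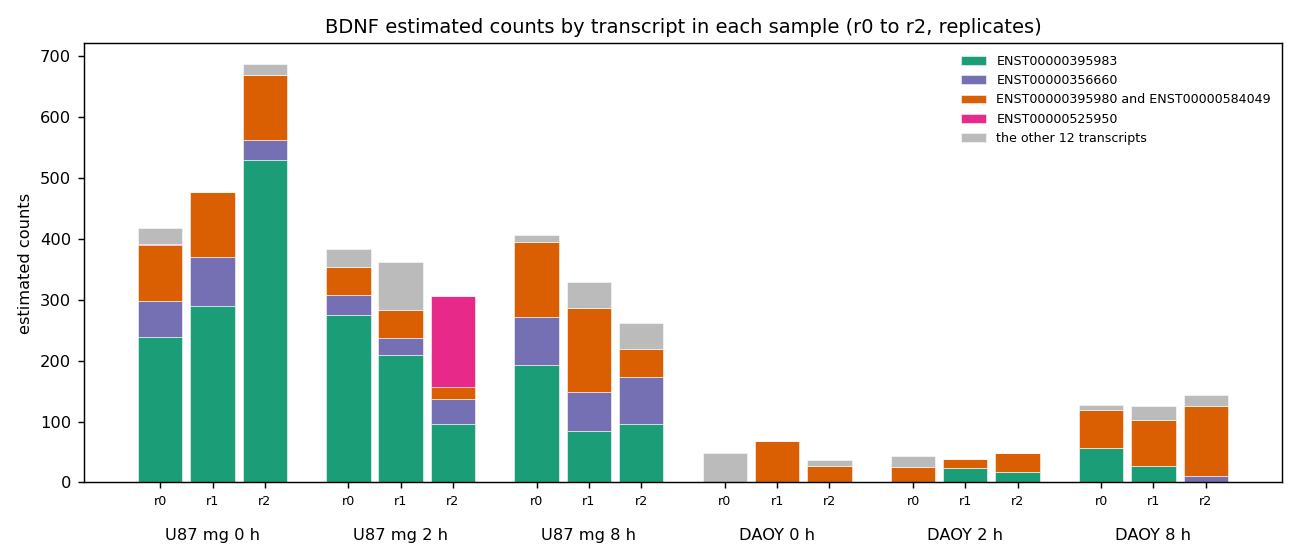
Estimated BDNF counts (vertical axis, from 0) in each of the 18 samples (horizontal axis, replicates r0 to r2 within line and time), stacked by transcript. The green part, ENST00000395983, is the largest in all 3 samples of U87 mg at 0 h and absent from DAOY at 0 h, while single replicates differ in which transcript holds the counts.

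In RefSeq (GRCh38.p14), 5 promoter windows of 250 bases upstream of BDNF start sites are listed. They were searched on both strands for the cAMP response element TGACGTCA, its core CGTCA and the E-box CACGTG, since BDNF is known to be regulated by the factor that binds the first. None of the 5 windows was nearest to the start of ENST00000395983, the leading transcript in U87 mg at 0 h, or of ENST00000356660. The bases directly upstream of those starts were not searched. The full element was in 0 of the 5. CACGTG was in 1 window, chr11:27720780-27721029 on the minus strand, which ends at the start of ENST00000525950. CGTCA was in 1 window, the one 12 bases from the start of ENST00000395980, which is chr11:27701622-27701871 on the minus strand. It is shown because that transcript and its identical copy held most of the BDNF counts over the 9 DAOY samples, with capitals marking CGTCA.
BDNF window: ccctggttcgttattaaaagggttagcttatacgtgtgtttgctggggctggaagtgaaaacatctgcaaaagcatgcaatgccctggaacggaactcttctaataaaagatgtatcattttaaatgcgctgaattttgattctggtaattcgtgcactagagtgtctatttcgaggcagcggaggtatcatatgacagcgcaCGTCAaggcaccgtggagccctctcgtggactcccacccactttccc
Over all 35116 promoter windows in RefSeq of the same length, 21.2% hold CGTCA on either strand, 1.6% hold TGACGTCA and 6.3% hold CACGTG. The match is a description of the letters and does not show a bound site.

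BDNF-AS (chromosome 11, 27506838 to 27698174, plus strand), a long RNA from the opposite strand, overlaps BDNF exons by 701 bases, which is 18.81% of its exon bases and 9.06% of those of BDNF. It was at 17.3, 30.6 and 21.9 counts at 0 h, at 23.5, 12.5 and 25.4 at 2 h and at 6.5, 9.4 and 2.8 at 8 h in DAOY, so the 8 h samples lay below the others. Its log2 fold change in DAOY at 8 h was -1.76 (standard error 0.48), not called. In U87 mg it had 6.1 to 19.4 counts and a log2 fold change of -0.29 (standard error 0.44) at 8 h. The strand setting of the Kallisto run is not given in the sources used here, so reads of the overlap may belong to either gene.

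NTF3 (ENSG00000185652, chromosome 12, 5432112 to 5521536, plus strand) had its counts in DAOY. It was at 4.58, 3.49 and 3.59 TPM at 0 h, 3.89, 8.29 and 6.07 TPM at 2 h, and 5.17, 9.95 and 5.50 TPM at 8 h. All 8 h samples lay above all 0 h samples, and the 2 h samples overlapped both. Its log2 fold change in DAOY on the count scale was 0.43 (standard error 0.35) at 2 h and 1.13 (standard error 0.34) at 8 h. Between 16 and 50 counts lay behind each of these values. In U87 mg, NTF3 had 0, 0 and 1 counts at 0 h, 0 in all samples at 2 h and 0, 1 and 5 counts at 8 h. The mean CPM of DAOY at 0 h was 8.60-fold a floor of 3 counts per library in U87 mg. Its leading transcripts by TPM were ENST00000423158, with a DAOY median of 2.94 TPM, and the noncoding ENST00000543548, with 1.62 TPM.

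NTF4, which encodes NT-4, had at most 3 counts in any sample and was not tested.

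NTRK2 (ENSG00000148053, chromosome 9, 84668551 to 85027070, plus strand), the TrkB gene, was at 0 counts in all 9 U87 mg samples. The DAOY samples were at 52, 104 and 138 counts at 0 h, at 33, 128 and 68 counts at 2 h and at 52, 76 and 79 counts at 8 h. All 3 times overlapped. At 0 h the mean CPM in DAOY was 40.6-fold a floor of 3 counts per library in U87 mg. Its log2 fold change in DAOY was -0.27 (standard error 0.47) at 2 h and -0.40 (standard error 0.48) at 8 h, less than its standard error. A count of 0 allows up to 3 counts in a library, for counting error. U87 mg had the higher BDNF level and no detected NTRK2 count, and DAOY the reverse order for both.

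The coding ends of the TrkB and TrkC transcripts decide whether the receptor carries the kinase domain, so both ends are shown for each gene. Lower case marks the last 24 bases the transcripts of a gene share, and capitals the first bases of their own.
NTRK2 short: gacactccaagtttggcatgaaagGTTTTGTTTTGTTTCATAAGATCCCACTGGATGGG
NTRK2 long: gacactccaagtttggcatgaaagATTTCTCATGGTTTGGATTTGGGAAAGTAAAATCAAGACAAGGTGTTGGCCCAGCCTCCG
NTRK3 short: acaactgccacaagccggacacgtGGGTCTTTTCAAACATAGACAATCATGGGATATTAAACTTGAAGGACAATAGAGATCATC
NTRK3 long: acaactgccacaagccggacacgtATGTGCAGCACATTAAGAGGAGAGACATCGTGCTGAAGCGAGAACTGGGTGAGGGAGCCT
The short NTRK2 transcript ENST00000359847 has 477 codons, with 11 of its own after the shared part, and the long ENST00000277120 has 838. The short NTRK3 transcript ENST00000317501 has 612 codons and the long ENST00000394480 has 825. The short forms are truncated receptors, known to bind the ligand without the kinase.

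In DAOY, nearly all NTRK2 counts were on transcripts without the kinase-coding end, taken here as the last coding exon of the long form. The 4 transcripts with it held 0 to 9.68 counts per sample, or 0% to 12.3% of the gene's counts (median 2.5%, 9 samples), and ENST00000359847 was at a median of 1.77 TPM against 0.041 TPM for ENST00000277120. On the TPM scale the kinase-coding share was 0% to 10.8%, with a median of 2.0%.

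NTRK3 (ENSG00000140538, chromosome 15, 87859751 to 88256768, minus strand) was counted in both lines. In U87 mg it was at 7.11, 6.70 and 7.43 TPM at 0 h, at 5.15, 4.19 and 2.53 TPM at 2 h and at 5.00, 5.71 and 4.02 TPM at 8 h, where both later times lay below 0 h. DAOY had 2.34, 1.61 and 0.484 TPM at 0 h, 1.95, 0.423 and 1.66 TPM at 2 h and 2.77, 2.05 and 5.30 TPM at 8 h, where the 0 h range overlapped both others and all 8 h samples lay above the 2 h samples. On the count scale its log2 fold change in U87 mg was -0.40 (standard error 0.21) at 2 h and -0.18 (standard error 0.21) at 8 h, and in DAOY -0.06 (standard error 0.62) and -0.09 (standard error 0.62). The direction in DAOY at 8 h turned with the scale, where limma gave 0.83 for log2(TPM + 1) and 1.26 for log2(TPM + 0.1). At 0 h DAOY minus U87 mg was -0.43 (standard error 0.48) on counts, though on TPM the mean in U87 mg was 7.08 against 1.48 in DAOY. Counts are not scaled by transcript length, and the 2 scales gave different sizes. On log2(TPM + 1), limma gave -1.78.

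The NTRK3 transcripts with the last coding exon of the long form took 45.4% to 87.5% of its counts in DAOY (median 70.3%, 9 samples). In U87 mg they took 10.6% to 26.9% (median 18.6%, 9 samples). By this definition the 2 lines did not overlap, at any time. ENST00000558676, of 705 codons, lacks that exon and was counted with the others, though it extends past the start of the long form's own part. Its mean counts at 0, 2 and 8 h were 14.65, 7.95 and 11.66 in U87 mg and 2.19, 1.34 and 2.14 in DAOY. Whether it codes part of the kinase was not examined, and if it does, the U87 mg share is understated. By TPM the shares were 6.1% to 27.9% in DAOY and 0.9% to 4.3% in U87 mg, again without overlap. On the TPM scale a count on a short transcript weighs more than one on a long transcript. In U87 mg the NTRK3 transcript with the higher median TPM of the 2 leading ones was ENST00000558306, of 49 codons and annotated for nonsense-mediated decay, at 2.15 TPM against 1.27 TPM for ENST00000317501. In DAOY their order was the other way round, at 0.346 and 0.468 TPM. These shares rest on 7.06 to 25.04 kinase-coding counts per sample in U87 mg and 12.38 to 69.27 in DAOY.

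**Figure D4:**
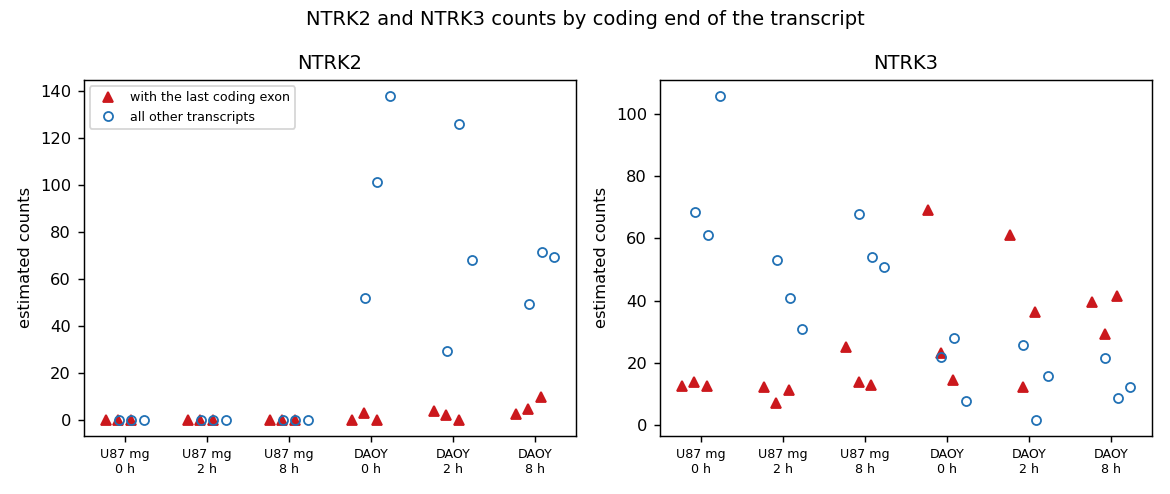
Estimated counts (vertical axis) of NTRK2 (left) and NTRK3 (right) in each sample, by line and time on the horizontal axis. Red triangles are transcripts with the last coding exon of the long form and blue circles all other transcripts of the gene. NTRK2 in DAOY lies almost wholly on the other transcripts. NTRK3 lies mostly on those with that exon in DAOY and on the others in U87 mg.

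NGFR (ENSG00000064300, chromosome 17, 49495293 to 49515017, plus strand) had 0 to 12 counts in any of the 18 samples and was not tested in any comparison. Its TPM was 0 to 0.366 in U87 mg and 0.0939 to 0.345 in DAOY, and the lines overlapped. The p75 receptor transcript was therefore near the limit of detection throughout.

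SORT1 (ENSG00000134243, chromosome 1, 109309568 to 109397951, minus strand) was the member with the highest mean TPM in each condition. In U87 mg at 0 h the means of SORT1 and BDNF were close, at 18.1 and 17.1 TPM. In replicate 2 of that group BDNF, at 18.5 TPM, was above SORT1, at 14.0 TPM. DAOY had 47.1, 50.1 and 28.7 TPM at 0 h, 44.3, 32.4 and 44.0 TPM at 2 h, and 47.6, 43.1 and 45.0 TPM at 8 h. In U87 mg it was at 22.3, 17.99 and 14.0 TPM at 0 h, 18.8, 20.2 and 23.1 TPM at 2 h and 13.2, 15.6 and 13.8 TPM at 8 h. The 2 lines did not overlap, and times within a line did, except that all 8 h samples of U87 mg lay below its 2 h samples. DAOY minus U87 mg at 0 h was 1.35 (standard error 0.17) on the log2 scale, 2.56-fold. The 8 h change was -0.17 (standard error 0.14) in U87 mg and 0.16 (standard error 0.20) in DAOY. Its leading transcripts were ENST00000256637 and ENST00000538502, with 17.6 and 12.98 TPM in DAOY and 6.38 and 4.21 TPM in U87 mg as medians.

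The other genes of the pathway were examined as 6 lists with 115 genes, none a member. At 2 h, 0 of 97 list genes tested in U87 mg were called (5 at an unadjusted p under 0.05) and 0 of 103 in DAOY (9 at an unadjusted p under 0.05), and DESeq2 and limma on either TPM scale called 0 as well. At 8 h, 1 of 97 was called in U87 mg and 3 of 103 in DAOY, all in the list of genes known to be induced by neurotrophins, of which 18 of 19 were tested in each line. Over all lists these are 1.03% and 2.91% of the genes tested, near the 0.638% and 3.13% of all genes. In DAOY, 2 rose and 1 fell. The median log2 fold change of that list at 8 h was 0.15 in U87 mg and 0.77 in DAOY, beside -0.001 and -0.012 over all genes tested. The lists, like the members, were chosen with earlier results of these data known. These medians and the adjusted p values of list genes are therefore a description. Whether the cells responded to neurotrophins was not tested.

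EGR1, an immediate early transcription factor, was at 12.4, 12.3 and 14.9 TPM at 0 h and at 44.1, 14.5 and 57.8 TPM at 8 h in U87 mg, where it rose by 1.66 on the log2 scale (adjusted p = 0.0486, Benjamini-Hochberg adjusted, edgeR's quasi-likelihood test). With each of the 9 samples left out in turn, that call held in 1 fit, the one lacking the 8 h replicate 1, with an adjusted p from 0.00116 to 0.27 in edgeR's quasi-likelihood test, and it held in 3 of 7 other alternatives, not with limma, the replicate block or only the groups compared. In DAOY, EGR1 went from 46.1, 58.1 and 53.6 TPM to 65.4, 138 and 132 TPM, a log2 fold change of 1.17 (adjusted p = 0.0427, Benjamini-Hochberg adjusted, edgeR's quasi-likelihood test), held in 2 of 9 such fits, those without replicate 0 of DAOY at 2 h or at 8 h, and in 4 of 7 other alternatives. SPRY4, a feedback inhibitor of receptor tyrosine kinase signalling, rose in DAOY from 7.13, 8.76 and 7.06 TPM to 19.7, 19.4 and 14.4 TPM (log2 fold change 1.24, adjusted p = 0.0111, Benjamini-Hochberg adjusted, edgeR's quasi-likelihood test), held in 8 of 9, with the loss without replicate 1 of DAOY at 8 h, and in 7 of 7 others. EGR3, an early gene of the same family as EGR1, fell in DAOY from 4.51, 4.43 and 3.83 TPM to 1.36, 1.81 and 1.69 TPM (log2 fold change -1.34, adjusted p = 0.026, Benjamini-Hochberg adjusted, edgeR's quasi-likelihood test), held in 6 of 9, with the losses without any one of the 3 samples at 8 h, and in 6 of 7 others. In U87 mg, SPRY4 was at 16 to 18.7 TPM at 8 h, and its range overlapped that at 0 h. EGR1 was already above all 0 h samples of its line at 2 h, and was called in neither line at that time. It was then at 39.3, 44.2 and 34.2 TPM in U87 mg (log2 fold change 1.55) and at 71.7, 122 and 88.4 TPM in DAOY. At 8 h, replicate 1 of U87 mg, at 14.5 TPM, lay within the EGR1 range at 0 h. The difference of the 8 h changes between the lines was called for 0 of 106 list genes (14 at an unadjusted p under 0.05, and 2 called by DESeq2).

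**Figure D5:**
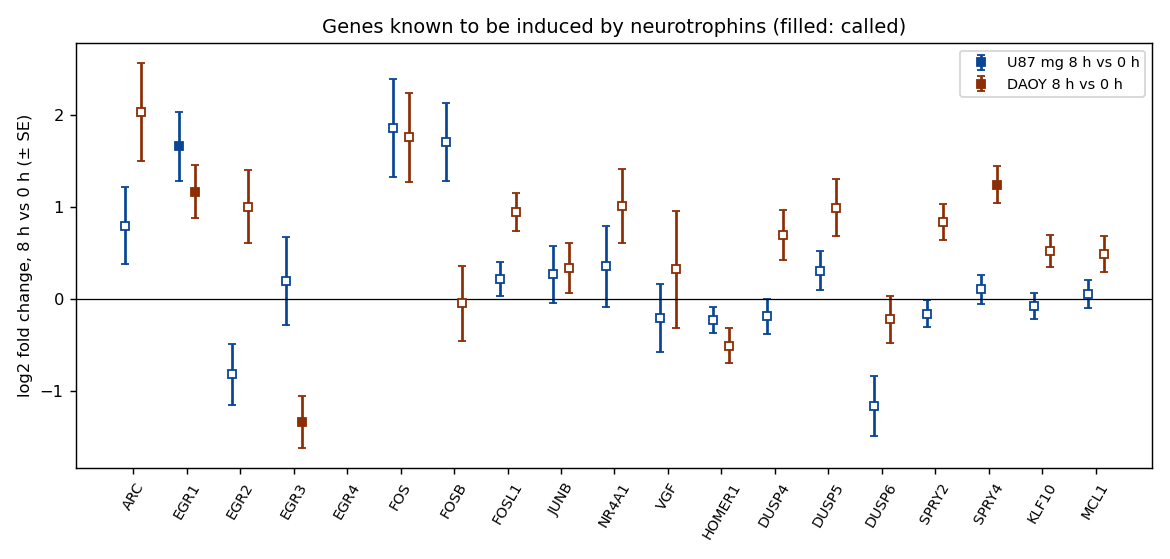
Log2 fold change at 8 h against 0 h with its standard error (vertical axis) for genes known to be induced by neurotrophins (horizontal axis), in blue for U87 mg and in brown for DAOY. Filled squares were called and open ones were not, and EGR4 was not tested. The called values are EGR1 at 1.66 in U87 mg and, in DAOY, EGR1 at 1.17, SPRY4 at 1.24 and EGR3 at -1.34.

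Between the lines at 0 h, 43 of 106 list genes were called, 21 higher and 22 lower in DAOY, beside 41.2% of all genes. Among genes that process the precursors, 8 of 12 were called, 5 higher and 3 lower in DAOY. PCSK1, a proprotein convertase, was at 57.4 ± 21.3 TPM (SD, n = 3) in DAOY and 1.92 ± 0.304 TPM in U87 mg, a log2 difference of 5.10 (adjusted p = 6.83e-11, Benjamini-Hochberg adjusted, edgeR's quasi-likelihood test). MMP3, a matrix metalloproteinase able to cleave proneurotrophins, was at 2034 ± 359 TPM in U87 mg and 4.198 ± 1.71 TPM in DAOY. Among other ligands and receptors, 5 of 6 tested were called. SORL1 and SORCS2, relatives of sortilin, were higher in DAOY. The mean CPM of SORL1 there was 34.8-fold a floor of 3 counts per library in U87 mg, and SORCS2 had 11.8 TPM against 0.350 TPM.

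Among partners of the p75 receptor, 8 of 20 were called, with NDN (necdin) higher in DAOY by 3.70 and APH1B, a subunit of gamma-secretase, lower by a log2 difference of -2.58. Among Trk adaptors 8 of 26 were called, with SHC3 (-3.18) and CRKL (-1.37) lower in DAOY on the log2 scale. Among regulators of BDNF transcription 4 of 24 were called, of which MEF2C, higher in DAOY by 3.44, had the smallest adjusted p. Among induced genes 10 of 18 were called, with SPRY2 (-2.23) and FOSL1 (-2.45) lower and EGR3 (3.94) higher in DAOY. All the list genes named with these line differences had an adjusted p of 1.06e-07 or less in edgeR's quasi-likelihood test after Benjamini-Hochberg adjustment.

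After the mean of each line was subtracted, the genes whose log2 CPM followed BDNF most closely over the 18 samples were CRHR1-IT1 (Pearson r 0.904), ARHGAP18 (0.880), MEGF10 (0.876), NR2F1 (0.867) and RP1-152L7 (0.855), out of 13137 genes compared. These samples share their libraries, times and lines, and no p is given. Within DAOY the 5 values of r were 0.914 to 0.954 over 9 samples and within U87 mg -0.092 to 0.562, so the likeness came mainly from DAOY. In DAOY at 8 h their log2 fold changes were 0.668 to 1.58, and in U87 mg -0.225 to 0.004.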

How the data were processed

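RNA of 18 samples (6 conditions, n = 3) was sequenced from a poly-A selected, stranded library. Per the submitters' notes and the study's methods, the authors assigned reads with kallisto 0.43.0 to GENCODE 24 transcripts, on GRCh38.p5, and deposited estimated counts and TPM per transcript. Columns of the authors' sleuth comparisons (p-values, q-values, fold changes) were not used. 0 columns of per-sample values lacked a sample. The study kept the replicates with the best quality control, so p-values measure the spread between these samples.

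Here estimated counts were summed by gene name, rounded, filtered by filterByExpr, scaled by TMM and fitted with edgeR 4.0.16 (glmQLFit, glmQLFTest, R 4.3.3), each line's 9 samples together for time and all 18 for line and interaction. Adjusted p values are Benjamini-Hochberg over all genes tested. Standard errors given with edgeR values were worked back from the test, as the size of the log2 fold change over the square root of its F statistic. Floors are 3 counts, were set against the mean of the higher group, and cover counting error only, for samples at 0 counts. For NTF3 and SORL1 the highest U87 mg sample at 0 h had 1 and 2.00 counts. The floor does not cover counting error there, and those folds are not lower bounds. DESeq2 1.42.0 and limma 3.58.1 on log2(TPM + 1) and log2(TPM + 0.1) were alternatives, as were no filter, a replicate block and single samples left out. Sequences and coordinates came from GENCODE 29 and RefSeq. The script was tested on simulated data.

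The 6 members and the lists were chosen with earlier results of these data known. Named by rule were the members, BDNF transcripts of at least 10 mean counts, the 2 leading transcripts of other members, up to 8 called list genes per field comparison and up to 12 between lines by adjusted p, NTF4, BDNF-AS and the 5 genes most like BDNF. Some items that this rule names are not reported here.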

Additional observations from a re-analysis of the deposited data

Results flagged for a closer look

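BDNF differed between the lines in its 8 h change. All 3 samples of U87 mg at 8 h lay below all 3 at 0 h, and all 3 samples of DAOY at 8 h lay above all 3 at 0 h, on the scale of CPM. The difference, DAOY minus U87 mg, was 2.024 on the log2 scale (standard error 0.24), with a log2 fold change of -0.55 in U87 mg and 1.46 in DAOY. With the replicate block it was 2.015 and was not called. BDNF was selected for this pattern, so the value is a description. The transcripts that held the counts differed between replicates, and their part in the difference was not tested.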

How the results depend on the processing

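The number of list genes called between the lines at 0 h, 43, stayed within 1.5 times under each alternative run (36 to 64, and 42 to 45 with 1 sample left out). The other numbers were small and moved. In U87 mg at 2 h (0), no filter gave 1 list gene, only the groups compared 1, and fits with 1 sample left out 0 to 1, the latter without the 8 h replicate 1. For U87 mg at 8 h (1), the number was 3 with DESeq2, 4 with no filter, 0 with limma on either TPM scale, 0 with only the groups compared and 3 at the adjusted p alone, and 0 to 2 with 1 sample left out (0 in each such fit except those lacking an 8 h sample, replicate 0 or 1). In DAOY at 2 h (0) it was 0 with any 1 sample left out. In DAOY at 8 h (3), it was 6 with DESeq2, 6 with no filter, 1 with only the groups compared and 8 at the adjusted p alone, and 0 to 6 with 1 sample left out, with 0 without replicate 1 and 1 without replicate 2 of DAOY at 8 h and 6 without replicate 1 of DAOY at 0 h. For the difference of the 8 h changes (0), it was 2 with DESeq2 and 3 with no filter, and 0 with any 1 sample left out. The cause of these shifts was not tested. Over all genes, 90 were called for U87 mg at 8 h, with 233 for no filter, 8 and 2 for limma on log2(TPM + 1) and log2(TPM + 0.1), 0 for only the groups compared, 243 for the adjusted p alone and 0 to 136 for 1 sample left out. For DAOY at 8 h, 482 became 302 for limma on log2(TPM + 1), 178 for only the groups compared, 900 for the adjusted p alone and 31 to 402 for 1 sample left out. The difference of the 8 h changes, 2 genes, became 84 for DESeq2, 158 for no filter, 6 for limma on log2(TPM + 1), 0 for the replicate block and 1 to 5 for 1 sample left out. At 2 h, no filter gave 57 genes in U87 mg and 18 in DAOY, and 0 to 71 came from 1 sample left out in U87 mg. With the replicate block, the number of list genes was 2 for U87 mg at 8 h and moved by no more than 1.5 times elsewhere, and BDNF was not among genes called for the difference of the 8 h changes, though its value there was 2.015. In the groups compared, the replicate numbers were not taken to pair the samples. Of 18 same-numbered pairs, 7 correlated above 0.1 (range -0.2 to 0.437), among them all 3 of U87 mg at 2 h with 8 h (0.146 to 0.263), which were not compared with each other. Others of the 7 lay between groups that were compared. These were replicate 2 of DAOY at 0 h with 8 h (0.315) and replicate 1 of U87 mg at 0 h with 2 h (0.214) and with 8 h (0.186).

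BDNF kept its direction at 8 h in both lines in each alternative. In DAOY it was 1.06 with limma on log2(TPM + 1), and the difference of the changes 1.68. For DAOY and for the difference between the lines, a single BDNF transcript gave no usable fold change, since ENST00000395983 was at 0 in DAOY at 0 h. In U87 mg at 8 h that transcript alone gave -1.39, beside -0.55 for the gene sum, so the size there moved with the choice of transcript. NTRK3 in DAOY at 8 h changed sign, from -0.09 to 0.83 and 1.26 with limma on log2(TPM + 1) and log2(TPM + 0.1), 0.065 with the replicate block, 0.68 lacking the 0 h replicate 0 and 0.033 lacking the 8 h replicate 1, and NTF3 at 8 h was 0.65 with limma on log2(TPM + 1). NGFR and NTF4, at 12 counts or fewer, are beyond what this depth can compare.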
